A study of Rattus norvegicus with 10 samples.

Results

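Purines leave the body through a short chain of enzymes, and transcripts of 10 genes of that chain were followed here in the kidney cortex of rats given a uricase inhibitor. The genes were chosen by name, from the deaminases that open the route to the enzymes that turn urate into allantoin: Ampd2, Ampd3, Ada, Pnp, Gda, Xdh, Uox, Urah, Urad and Allc. Of these 10, 9 had a row of that exact symbol among the 32545 genes of the deposited table, and 7 had a mean of at least 0.5 FPKM (fragments per kilobase of gene, scaled to library size) over the 10 libraries. Uox and Allc lay under that filter, and Urah had no row of its symbol.

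AMP deaminase and adenosine deaminase convert adenine compounds to IMP and inosine, purine nucleoside phosphorylase frees hypoxanthine and guanine from their nucleosides, and guanine deaminase turns guanine into xanthine. Xanthine dehydrogenase oxidises hypoxanthine to xanthine and xanthine to urate, where the chain ends in humans. In rats uricase, a peroxisomal enzyme best known from liver, oxidises urate further, and a hydrolase (Urah) and a decarboxylase (Urad) then complete allantoin, which the kidney excretes.

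The animals were male and female Dahl salt-sensitive rats (SS/JrHsdMcwi), an inbred line whose blood pressure rises on dietary salt, labelled wildtype. Telemeters were placed at 8 to 9 weeks of age, and blood pressure was recorded for 4 days on 0.4% NaCl. All rats then ate 4% NaCl for 3 weeks, 5 libraries coming from rats whose diet also held 2% oxonic acid, an inhibitor of uricase, and 5 from vehicle rats without it. The labels give no sex for a library, do not tie each library to its own rat, and hold no group on the low-salt diet, so the comparison is of oxonic acid within salt loading, and its p-values reflect only how far these samples spread, which may be technical.

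Depth varied modestly between libraries, while some cell type markers varied widely. Reads in genes numbered 14.5 to 18.5 M (mega) per library, and mitochondrial transcripts took 9.23% to 13.5% of them. Vehicle library 4 stood apart on the first principal component, at 39.8 against -13.7 to 15.5 for the other libraries. Oxonic acid library 3 carried Slc14a2, a urea transporter of the inner medulla, at 16.0 FPKM, against at most 0.505 FPKM in any other library. The tissue label is cortex, and the 8 proximal tubule markers summed to 3181 to 4316 FPKM per library. The 4 B cell markers summed to means of 0.800 and 0.630 FPKM with oxonic acid and with vehicle. The series holds no sample of medulla to set the label against. The sample descriptions carry numbers in 3 runs, called A, B and C here: run A holds 3 oxonic acid libraries and no vehicle library, run B 1 and 3, and run C 1 and 2. No label names the runs as batches.

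The sequences of 3 promoter windows are shown because their genes stand at the turn of the pathway: Xdh makes urate, Uox removes it and had no reads, and Urad acts later in the same branch and was expressed. Each window runs from 250 bases before to 50 bases after the gene's start (RefSeq, build GRCr8, 5′ to 3′ along the gene), with CG dinucleotides in capitals. They lie at chr6:27282069-27282368 (plus strand) for Xdh, chr2:238146880-238147179 (plus strand) for Uox and chr12:12745138-12745437 (plus strand) for Urad.
Xdh: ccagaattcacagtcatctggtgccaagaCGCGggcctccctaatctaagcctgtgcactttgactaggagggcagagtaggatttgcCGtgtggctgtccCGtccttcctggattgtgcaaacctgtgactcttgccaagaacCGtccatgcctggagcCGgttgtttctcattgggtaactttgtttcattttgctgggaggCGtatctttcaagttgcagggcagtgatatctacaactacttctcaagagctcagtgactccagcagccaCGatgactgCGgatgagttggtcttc
Uox: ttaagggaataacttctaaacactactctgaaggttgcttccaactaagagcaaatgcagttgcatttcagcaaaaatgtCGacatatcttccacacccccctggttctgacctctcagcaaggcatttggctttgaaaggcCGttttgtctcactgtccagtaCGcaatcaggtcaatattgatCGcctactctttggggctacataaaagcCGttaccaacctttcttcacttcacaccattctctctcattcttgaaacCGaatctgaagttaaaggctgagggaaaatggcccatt
Urad: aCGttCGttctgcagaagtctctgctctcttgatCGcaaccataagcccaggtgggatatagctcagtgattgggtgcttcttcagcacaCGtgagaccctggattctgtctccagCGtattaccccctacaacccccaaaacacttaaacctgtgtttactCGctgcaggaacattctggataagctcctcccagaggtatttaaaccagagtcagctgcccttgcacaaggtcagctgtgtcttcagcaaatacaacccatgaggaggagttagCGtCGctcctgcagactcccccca
The Uox window held 6 CG dinucleotides, the Urad window 8 and the Xdh window 9, beside a median of 7 over 33469 rat windows of the same length. Windows were matched for 9 of the 10 genes, all but Ampd3. The motif CCAAT, searched on both strands, was found in the windows of Xdh and Urad but not in that of Uox, and in 37.5% of all windows. The motif TATAAA was in none of these 3 windows and in 14.2% of all windows. GGGCGG, on either strand, was found in the windows of Ampd2, Ada and Gda, in none of these 3, and in 33.1% of all windows.

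The genes spanned a wide range of levels. Pnp was the most abundant, at a mean of 108 FPKM over the 10 libraries, followed by Xdh at 46.0, Ampd2 at 20.4, Gda at 13.4, Ada at 12.1, Urad at 8.87 and Ampd3 at 7.92 FPKM. Pnp exceeded Xdh, Xdh exceeded Ampd2 and Ampd2 exceeded Gda in 10 of 10 libraries, without overlap of their ranges. The lower places were not separated: Gda exceeded Ada in 6 of 10 libraries, Ada exceeded Urad in 8 and Urad exceeded Ampd3 in 5. Xdh, the urate-forming enzyme, stood higher than 86.9% of the genes tested.

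Uox (ENSRNOG00000016339, chromosome 2, 252452269 to 252488396, plus strand; positions here and below are as deposited; their build is not stated in the labels or the table) had 0 reads in all 10 libraries. Uricase, the enzyme that oxonic acid inhibits, thus had no detected transcript in either diet group. With 3 reads as the limit, a level of up to 0.0958 to 0.125 FPKM per library, or 0.0112 FPKM over the 10 libraries together, would be allowed, a limit for counting error only. Against that limit, Xdh was at least 4114-fold higher and Urad at least 794-fold higher. Albumin (Alb), the main liver secretory product, reached 4.41 FPKM in oxonic acid library 3 and 4.30 FPKM in vehicle library 2, and Uox was at 0 reads in those libraries too. Alb was picked from a list of 10 hepatocyte markers, which did not all peak in those libraries. Fgb of that list was highest in vehicle library 4, at 7.66 FPKM. No liver was sampled, so the level of Uox that would come with such Alb values is not known.

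The enzymes after uricase were unequal. For Urah, the hydrolase of 5-hydroxyisourate, neither that symbol nor its older symbol in the RefSeq table (GRCr8) had a row. The row LOC100911028 (chromosome 1, 213577122 to 213580542), chosen after its values were seen, carries the description of a 5-hydroxyisourate hydrolase-like gene. It measured 1.60, 0.558, 1.63, 1.59 and 0.799 FPKM in oxonic acid libraries 1 to 5 and 1.95, 1.77, 0.644, 2.19 and 0.574 FPKM in vehicle libraries 1 to 5. Low and high values occurred in both groups, on 7 to 29 reads per library, and the log2 difference was -0.10 (SE 0.32, limma adjusted p = 0.933). Allc, for allantoicase, which acts on allantoate beyond the product that rats excrete, had 1 read in oxonic acid library 2 and none in the other 9 libraries. A two-sided exact permutation test could not decide here, because with 1 read every arrangement gives a difference of the same size.

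Urad (ENSRNOG00000050360, chromosome 12, 9446940 to 9455673, plus strand), whose decarboxylase forms allantoin, showed the largest difference between diets among the 7 genes tested when the runs of sample numbers were not blocked. It measured 13.2, 9.78, 8.33, 7.70 and 10.2 FPKM in oxonic acid libraries 1 to 5 and 5.81, 6.76, 6.21, 9.49 and 11.2 FPKM in vehicle libraries 1 to 5. All 5 oxonic acid values lay above the vehicle median, but vehicle libraries 4 and 5 lay inside the oxonic acid range. The oxonic acid mean was 9.83 ± 2.12 FPKM and the vehicle mean 7.90 ± 2.36 FPKM (SD, n = 5 each). The log2 difference was 0.32 (SE 0.19) and did not pass (limma adjusted p = 0.599). The 95% interval of the fold ran from 0.934 to 1.66. Urad rested on 49 to 106 reads per library, a counting error of 12.0% beside a coefficient of variation of 26.5% over the 10 libraries.

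**Figure D1:**
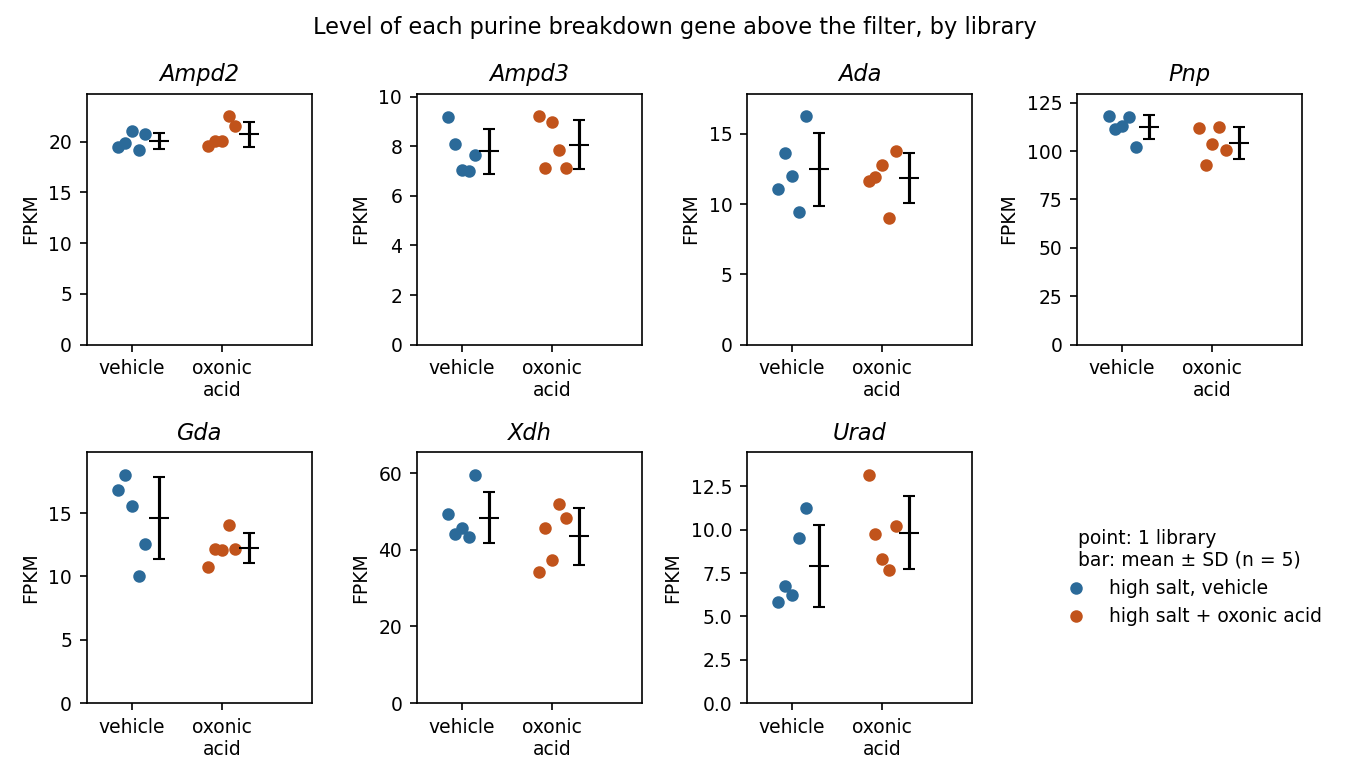
FPKM of the 7 genes above the filter in each library (points), by diet, with the mean and SD of 5 libraries beside them (bars). The diet groups overlapped in every panel, and the vehicle values of Urad and Gda ran from 5.81 to 11.2 and from 10.0 to 18.0 FPKM.

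At the other end of the pathway, Gda (ENSRNOG00000018282, chromosome 1, 238982392 to 239057732, minus strand), which feeds guanine into xanthine, had the next largest difference in size, in the opposite direction. It measured 10.8, 12.2, 12.1, 14.0 and 12.2 FPKM in oxonic acid libraries 1 to 5 and 16.8, 18.0, 15.6, 10.0 and 12.5 FPKM in vehicle libraries 1 to 5. All 5 oxonic acid values were below the vehicle median, and again it was vehicle libraries 4 and 5 that overlapped them. The log2 difference was -0.22 (SE 0.14, limma adjusted p = 0.629), with means of 12.2 ± 1.17 and 14.6 ± 3.27 FPKM (SD, n = 5 each).

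Urad and Gda overlapped between diets but not between run B of the sample numbers and the other runs. In run B, with 1 oxonic acid and 3 vehicle libraries, Urad was 5.81 to 7.70 FPKM, below its 8.33 to 13.2 FPKM in run A and its 9.49 to 11.2 FPKM in run C. Gda was 14.0 to 18.0 FPKM in run B, above its 10.8 to 12.2 FPKM in run A and 10.0 to 12.5 FPKM in run C. Such a separation of run B from the other 6 libraries was found in 2.67% of the 14508 genes tested. Within runs, Urad differed by 0.28 in run B and -0.02 in run C on the log2 scale, and Gda by -0.25 and 0.11, so both changed sign between runs B and C. Blocking on the runs gave log2 differences of 0.14 (SE 0.16, limma adjusted p = 0.865) for Urad and -0.08 (SE 0.12, limma adjusted p = 0.893) for Gda. Leaving out each library in turn gave 0.21 to 0.45 for Urad and -0.34 to -0.14 for Gda. Run A has no vehicle library, so there the diet and the run cannot be told apart.

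**Figure D2:**
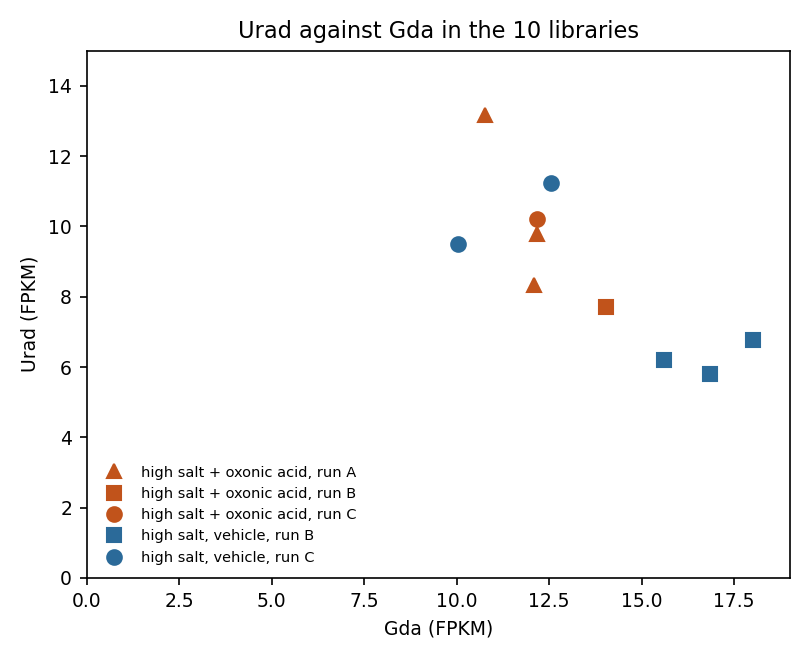
Urad against Gda (both FPKM, axes from 0), 1 point per library, coloured by diet and shaped by run of sample numbers. The 4 libraries of run B, of both diets, lie at Gda of 14.0 or more and Urad of 7.70 or less, apart from the other 6.

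Xdh (ENSRNOG00000007081, chromosome 6, 25149235 to 25211494, minus strand), which encodes the enzyme that makes urate, did not differ beyond the spread between libraries. The deposited table and GRCr8 place this gene on opposite strands. It measured 34.2, 45.7, 37.4, 51.9 and 48.3 FPKM in oxonic acid libraries 1 to 5 and 49.3, 44.2, 45.7, 43.3 and 59.6 FPKM in vehicle libraries 1 to 5. Oxonic acid libraries 1 and 3 were the lowest of the 10 and vehicle library 5 the highest, with the rest of the groups interleaved. The oxonic acid mean was 43.5 ± 7.44 FPKM and the vehicle mean 48.4 ± 6.65 FPKM (SD, n = 5 each). The log2 difference was -0.16 (SE 0.12, limma adjusted p = 0.689), with a fold between 0.741 and 1.08 (95% interval). Blocking on the runs turned the sign, to 0.05 (SE 0.14, limma adjusted p = 0.944), and the differences within runs B and C were 0.16 and -0.07. Counting error was 1.70% for Xdh, on 2585 to 4572 reads, so its coefficient of variation of 15.5% was not limited by depth.

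The level of Xdh moved from library to library with most of the proximal tubule markers, and with some markers of other segments. After the diet means were taken off, Xdh had a Pearson r of 0.91 (Spearman's rho 0.93) over the 10 libraries with Slc5a2, the glucose cotransporter of the early proximal tubule, picked as the highest in its list. Over the 8 proximal tubule markers the median r was 0.70, with 7 of 8 above 0 and the water channel Aqp1 at -0.51. The 6 markers of the late, straight segment had a median r of -0.57, with Slc7a13 and Slc22a7, both transporters of that segment, at -0.80 and -0.82, but Acsm3 of the same list at 0.71. The 4 thick ascending limb markers were all negative, with a median of -0.73. Without the 2 libraries whose Xdh lay farthest from its median, these medians were 0.57, -0.45 and -0.48. The 4 inner medulla markers were also all negative, with a median r of -0.54, and of -0.76 without those 2 libraries. The 3 distal convoluted tubule markers were all positive with all 10 libraries, with a median r of 0.46 and Slc12a3 at 0.80. Of the 6 collecting duct markers, 2 were positive, Slc26a4 at 0.70 and Scnn1g at 0.08, and 4 negative, with Aqp2 lowest at -0.81. These are descriptions over 10 libraries that share tissue pieces and scaling, and in bulk RNA fewer cells of a type and less RNA per cell cannot be told apart.

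**Figure D3:**
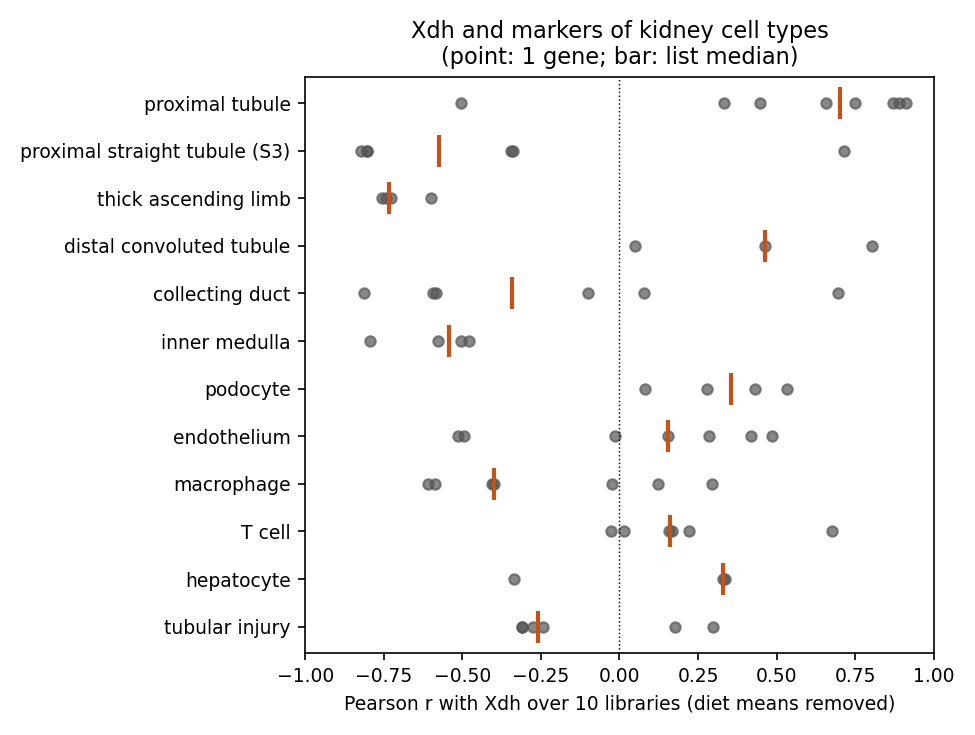
Pearson r of Xdh with each marker gene over the 10 libraries, on log2(FPKM + 0.5) with diet means removed (points), and the median of each list (bars). Proximal tubule genes lie mostly to the right (median 0.70) and thick ascending limb genes all to the left (median -0.73).

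By diet group, the 6 straight-segment markers summed to 1065 to 1905 FPKM with oxonic acid and 526 to 1237 FPKM with vehicle, and the 4 thick ascending limb markers to 1258 to 2726 and 1085 to 1796 FPKM. The 4 inner medulla markers summed to 22.6 to 132 and 23.8 to 43.5 FPKM, and Slc14a2 among them was at 0 in 5 libraries. Of the 8, 6, 4 and 4 genes in the proximal tubule, straight-segment, thick limb and inner medulla lists, 7, 4, 3 and 4 were higher with oxonic acid. In limma 0 of them passed the threshold, and 1, 0, 0 and 2 had an unadjusted p under 0.05, beside 9.49% of the 14508 genes tested. The median log2 difference of the inner medulla list was 0.85, beside 0.005 over all genes tested. The 6 collecting duct markers summed to 193 to 305.7 FPKM with oxonic acid and 158 to 226 FPKM with vehicle, 5 of them higher with oxonic acid. The 6 tubular injury markers summed to 682 to 1440 and 1238 to 3122 FPKM, 5 of them lower. The 7 tested macrophage markers were all lower, with sums for the whole list of 97.2 to 119 and 120.4 to 156 FPKM. In these 3 lists 3, 4 and 3 genes had an unadjusted p under 0.05 and 0 passed in limma, and their median r with Xdh was -0.34, -0.26 and -0.40. The part of any of these lists in the Xdh values was not tested. Without each library in turn, the log2 difference of Xdh ran from -0.23 to -0.08.

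The 3 genes most like Xdh in pattern, among 11814 others with a mean of at least 1 FPKM, were the metalloreductase gene Steap2 (r = 0.97), the acyl-CoA synthetase gene Acss3 (r = 0.97) and the kinase gene Mapk4 (r = 0.96), over 10 libraries with diet means removed. For Urad they were Rilpl2, the carbonic anhydrase gene Car2 and the sorting nexin gene Snx2, at r of 0.94 each, over libraries whose Urad values separate by run as given above. They were selected as the highest values, so the r carries no test.

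Upstream of Xdh, Pnp was among the steadier genes, with a coefficient of variation of 7.46%. Pnp (ENSRNOG00000009982, chromosome 15, 27875911 to 27883350, plus strand), which splits inosine and guanosine, measured 112, 92.9, 104, 112 and 100.5 FPKM in oxonic acid libraries 1 to 5 and 118, 111, 113, 117 and 102 FPKM in vehicle libraries 1 to 5. All 5 oxonic acid values were below the vehicle median, and vehicle libraries 2 and 5 lay inside the oxonic acid range. The log2 difference was -0.11 (SE 0.06, limma adjusted p = 0.594), the smallest adjusted p among the 7 genes without the run block. The fold lay between 0.841 and 1.02 (95% interval). Blocking on the runs gave -0.07.

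Ada (ENSRNOG00000010265, chromosome 3, 160115842 to 160139947, minus strand), which deaminates adenosine to inosine, measured 11.7, 11.9, 12.8, 9.00 and 13.8 FPKM in oxonic acid libraries 1 to 5 and 11.1, 13.6, 12.0, 9.43 and 16.2 FPKM in vehicle libraries 1 to 5. The groups interleaved, each with a low library. The log2 difference of -0.06 (SE 0.14, limma adjusted p = 0.902) turned to 0.03 without vehicle library 5 and to 0.03 without oxonic acid library 4. With the runs as a block it was -0.15 (SE 0.19, limma adjusted p = 0.876), in size the largest of the 7 genes in that fit. The T cell markers, whose cells are known for high adenosine deaminase, summed to 25.3 to 26.6 FPKM with oxonic acid and 25.9 to 40.1 FPKM with vehicle, and all 6 were lower with oxonic acid, 0 of them past the threshold in limma and 3 at an unadjusted p under 0.05, beside 9.49% of all genes. Their part in the Ada values was not tested, and r of Ada with those 6 markers had a median of 0.02. Among all marker lists, the median r with Ada was highest for endothelium, at 0.71 with 7 of 7 markers positive, from 0.04 to 0.89. The median r was lowest for the thick ascending limb, at -0.58 with 0 of 4 positive. Of the 7 endothelium markers, 6 were higher with oxonic acid and 1 lower. In limma 0 of these 7 passed the threshold and 2 had an unadjusted p under 0.05, beside 9.49% of all genes. The part of these lists in the Ada values was not tested either.

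Without the run block, the AMP deaminase genes had the smallest differences of the 7. Ampd2 (ENSRNOG00000019240, chromosome 2, 210861625 to 210874304, minus strand) measured 19.5, 20.1, 20.0, 22.5 and 21.5 FPKM in oxonic acid libraries 1 to 5 and 19.5, 19.9, 21.0, 19.1 and 20.7 FPKM in vehicle libraries 1 to 5. It was the steadiest of the 7 genes, with a coefficient of variation of 5.10% over the 10 libraries. Its log2 difference was 0.05 (SE 0.05, limma adjusted p = 0.795), and 0.13 (SE 0.06, limma adjusted p = 0.746, limma unadjusted p = 0.053) when blocked on the runs.

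Ampd3 (ENSRNOG00000018262, chromosome 1, 175586097 to 175630467, plus strand), the form known from red cells, measured 9.20, 7.13, 8.96, 7.84 and 7.13 FPKM in oxonic acid libraries 1 to 5 and 9.18, 8.11, 7.04, 6.99 and 7.65 FPKM in vehicle libraries 1 to 5. High and low libraries occurred in both groups, and the log2 difference, 0.04 (SE 0.10, limma adjusted p = 0.903), turned to -0.04 with the runs as a block. The gene overlaps another row on each strand, each at a mean under 0.25 FPKM. The ratio of Ampd3 to Ampd2 in a library ran from 0.331 to 0.471. On the log2 scale it averaged -1.32 ± 0.22 with oxonic acid and -1.31 ± 0.18 with vehicle (SD, n = 5 each), a difference of -0.003 (p = 0.984 in an exact two-sided permutation test, with adjusted p = 1 over 2 such tests). Within runs B and C the difference was -0.20 and -0.14, with 1 oxonic acid library in each.

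Some pairs of these genes moved together across libraries. With diet means removed, Xdh and Ampd2 had a Pearson r of 0.74 (Spearman's rho 0.75) over the 10 libraries, and Ada and Pnp had an r of -0.71 (rho -0.79). Without the 2 libraries farthest from the median of Ampd2 and of Ada, these values were 0.58 and -0.48. They are the ends of 21 pairs, leaving out Urad with Gda, whose libraries fall into the groups described above.

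Across the chain, 0 of the 7 tested genes passed an adjusted p under 0.05 in limma, as did 0% of the 14508 genes tested. At an unadjusted p under 0.05 the count was 0 of 7, beside 9.49% of all genes, and limma's voom on recovered reads called 0 of the 7 and 0 genes in the whole table. The groups were without overlap in 0 of 7, beside 1.91% of all genes. With oxonic acid 3 of the 7 were higher (Urad, Ampd2, Ampd3) and 4 lower (Gda, Xdh, Pnp, Ada), and the median log2 difference was -0.06, beside 0.005 over all genes tested. Without the run block, all 7 intervals lay within 0.691- to 1.66-fold, so larger changes fall outside them. With the runs as a block, the interval of Ada reached down to -0.59 on the log2 scale. The lowest limit without the block was -0.53, for Gda. A p that misses the threshold does not show equal levels.

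**Figure D4:**
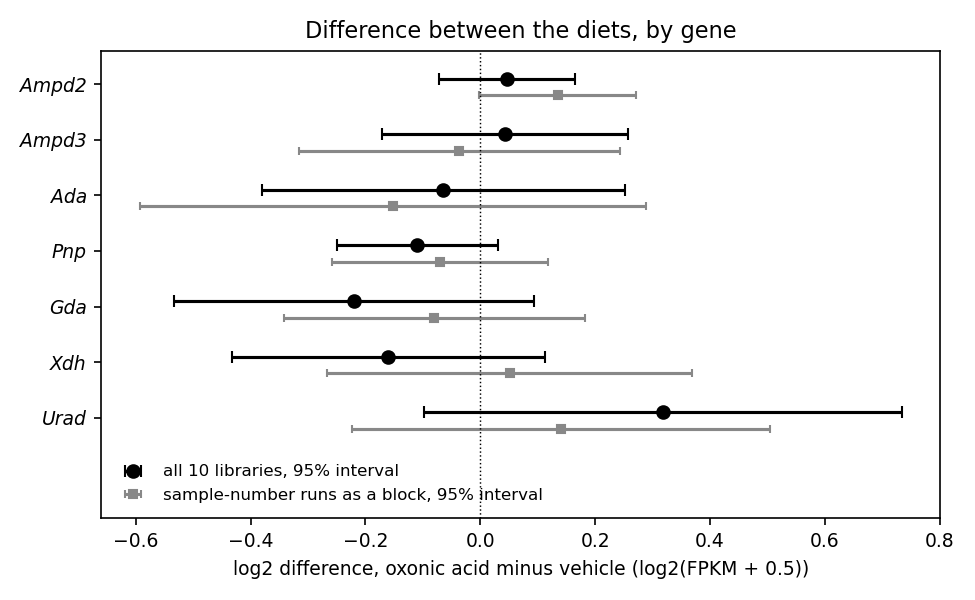
Log2 difference between diets for each gene, oxonic acid minus vehicle, on log2(FPKM + 0.5), with 95% intervals from limma. Black circles use all 10 libraries and grey squares add the runs of sample numbers as a block. Every black interval includes 0, and the estimates for Urad and Gda move towards 0 with the block, from 0.32 to 0.14 and from -0.22 to -0.08.

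Genes around the chain gave few leads. Of 13 genes listed for dephosphorylation or deamination of nucleotides, not all of them specific to purines, 11 were tested. Of these, 4 were higher and 7 lower, and 0 passed in limma (median log2 difference -0.07, beside 0.005 over all genes). Of these 11, 3 had an unadjusted p under 0.05, beside 9.49% of all genes. The cytosolic nucleotidase gene Nt5c had means of 5.65 ± 0.969 FPKM under oxonic acid and 7.19 ± 0.436 FPKM under vehicle (SD, n = 5 each; log2 difference -0.33, limma adjusted p = 0.396). The mitochondrial nucleotidase gene Nt5m measured 6.27 ± 0.915 and 4.95 ± 0.833 FPKM (log2 difference 0.32, limma adjusted p = 0.485). The third, named after its values were seen, was Nt5e, the surface enzyme CD73 that makes adenosine from AMP, with a log2 difference of 0.20 (limma adjusted p = 0.520).

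Xanthine dehydrogenase needs a molybdenum cofactor, and the genes of that cofactor and of the other molybdoenzymes showed small differences between diets. Of 10 listed, 8 were tested, 7 were higher and 1 lower, and 0 passed in limma or had an unadjusted p under 0.05 (median 0.06). The aldehyde oxidase gene Aox2 and the cofactor gene Gphn had log2 differences of 0.14 and 0.06 (limma adjusted p of 0.684 and 0.799). Of 7 nucleoside transporters 5 were tested, 2 higher and 3 lower, with 0 past the threshold or at an unadjusted p under 0.05. Slc28a2, which takes up purine nucleosides with sodium, and Slc29a1, an equilibrative carrier, had log2 differences of -0.16 and 0.16 (limma adjusted p of 0.701 and 0.718).

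Transcripts of other enzymes of the peroxisome, where uricase resides, ranged widely in level. Of 10 listed peroxisomal genes 8 were tested, 5 higher and 3 lower, and 0 passed or had an unadjusted p under 0.05 in limma (median 0.05). Hao2, a hydroxyacid oxidase, ranged from 2588 to 3214 FPKM over the 10 libraries. At the low end, Pipox had a mean of 0.686 FPKM, and Agxt, an aminotransferase gene under the filter, was at 0 in 8 libraries. These 3 were named after their values were seen. Catalase (Cat), which removes the hydrogen peroxide that such oxidases form, measured 420 ± 41.1 and 381 ± 39.0 FPKM (SD, n = 5 each), with a log2 difference of 0.14 (limma adjusted p = 0.603).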

How the data were processed

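RNA from kidney cortex was measured in 10 libraries. Per the labels' protocols, poly-A RNA was made into libraries by random priming, and the text covers stranded and unstranded kits without saying which was used. The submitters' processing notes name featureCounts 1.5.0-p3, StringTie 1.3.3b, HISAT2 2.0.5 and fastp; the build and the annotation used are not given in the sources here. The authors deposited FPKM per gene and library. Dividing FPKM times gene length by its value for 1 read returned whole reads (100% of values to within 0.01), and the authors' library size was 0.977 to 1.04 times their sum. No 2 libraries agreed within sampling noise (lowest chi-square per degree of freedom 5.06).

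Genes with a mean of at least 0.5 FPKM (14508) were tested on log2(FPKM + 0.5) with limma 3.58.1 (trend) in R 4.3.3, oxonic acid minus vehicle, two-sided, with Benjamini-Hochberg adjustment over all of them. The pseudocount understates changes of low genes. The procedure was tested on simulated data. Single values had exact permutation tests. Alternatives covered the pseudocount, filter, scaling, weights, blocks, voom and leaving out each library. Where a symbol repeats, the row with the highest mean was used. Named genes are all 10 members, of each context list those that passed or else the 2 with the smallest p, and the 3 genes most like Xdh and Urad in pattern. A gene that this rule names is not reported here. Members and lists were chosen with earlier results of these data known. Figures used matplotlib 3.10.9.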

Additional observations from a re-analysis of the deposited data

How the results depend on the processing

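The count of tested purine breakdown genes past the threshold was 0 under every alternative run, and the number of genes past it in the whole table was 0, except 1 with limma's array weights and 0 to 1 when each library was left out in turn (1 without vehicle replicate 1). Over the 7 genes, 121 of 126 differences under an alternative kept their direction, with adjusted p of 0.285 to 0.992. Of the others, Ampd3 went to -0.0367 and Xdh to 0.0514 when blocked on the runs of sample numbers; leaving out each library gave -0.004 to 0.1007 for Ampd3 and -0.1548 to 0.0333 for Ada. LOC100911028 went to 0.0049 with array weights and ran from -0.2861 to 0.062 with each library left out. The balance of Ampd3 over Ampd2 ran from -0.0709 to 0.0639 with each library left out and was -0.1952 and -0.1442 within runs B and C, so its sign is not settled. With the replicate number as a block, the Ampd3 and Urad differences stayed at 0.0434 and 0.3183, with 0 genes called, and the balance gave p = 1; the labels do not say that the numbers pair samples, and correlations of same-numbered libraries ran from -0.0132 to 0.203, 1 of 5 libraries correlating best with its own number. Dividing by summed reads moved the median of all genes from 0.00526 to -0.0258. Depth limits Urad, LOC100911028, Allc and Uox most. No single value was flagged as far from its group in 18 groups of 5 values. That check did not cover whole libraries, and vehicle library 4 stood apart on the first principal component.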
